A study of Mus musculus with 6 samples.

Results

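The genes described are the cadherin superfamily of the mouse cerebellum: the protein-coding rows of the gene count table named Cdh followed by a digit, Pcdh, Fat1 to Fat4, Dchs or Celsr, with a mean of at least 1 CPM (the count of a gene scaled to the total of its library) over the 6 libraries. Of 56748 rows in the table, 102 matched these names and 93 reached that level. They comprise 20 Cdh genes, 54 clustered protocadherins (12 Pcdha, 21 Pcdhb and 21 Pcdhg), 11 other protocadherins and 8 genes of the Fat, Dchs and Celsr families. The 9 that did not reach it were Cdh16, Cdh17, Cdh26, Dchs2, Pcdha4, Pcdha11, Pcdhb1, Pcdhga10 and Pcdh12. Pcdha8, at 1.03 CPM, lay just inside the limit and Dchs2, at 0.864 CPM, just outside it.

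Cadherins are membrane proteins whose extracellular repeats bind calcium and hold cells together. Classical cadherins bind like to like and are tied to actin through catenins. Clustered protocadherins are made from arrays of neighbouring promoters, so that each neuron shows its own combination, which takes part in self-avoidance of dendrites and in neuron survival. Fat and Dachsous proteins are giant cadherins of tissue and planar polarity, and Celsr proteins are cadherins with a seven-pass membrane domain that guide axon tracts. In the cerebellum, Fat2 is a product of granule cells, the small and very numerous neurons whose axons form the parallel fibres.

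RNA came from the cerebella of C57BL/6J mice aged 90 to 120 days. For the 3 MeHg mice the drinking water of the dam contained 0.2 ppm methylmercury from conception to birth, and for the 3 Control mice 0 ppm. Dosing was thus of the dam and ended at birth. Each group comprised, by label, 2 females and 1 male, which was replicate 2 in MeHg and replicate 3 in Control. The female-labelled Control replicate 2 had 0.249 CPM of the X-inactivation transcript Xist and 87.2 CPM of the Y-linked gene Ddx3y, against 772 and 0 CPM in Control replicate 1. The male-labelled libraries had 0.131 and 86.5 CPM (MeHg replicate 2) and 0.0719 and 81.7 CPM (Control replicate 3). By these transcripts Control replicates 2 and 3 were both male and MeHg replicate 2 was the only male of its group, so the groups were not balanced by sex. No label gives a dam or litter, so p-values measure only the spread between these 6 samples.

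Total counts ran from 14487022 to 15975367 in MeHg libraries and from 14116088 to 20303833 in Control libraries. Markers of granule cells summed to 5625 to 6550 CPM in MeHg and 7431 to 7971 CPM in Control, and those of Purkinje cells to 7405 to 9273 CPM in MeHg and 9197 to 10040 CPM in Control, with no marker of either list at 0. MeHg replicate 2 stood apart in 6 markers of brainstem and midbrain, whose sum was 164 CPM there and 9.63 to 15.0 CPM in the other 5 libraries. The 7 choroid plexus markers summed to 1561 to 6723 CPM in MeHg and 24.9 to 1877 CPM in Control, none of them at 0. All markers of oligodendrocytes (5 of 5, sum 5321 to 7302 CPM in MeHg and 4713 to 5413 CPM in Control), of mural cells and fibroblasts (5 of 5, 137.5 to 182 CPM in MeHg and 121 to 140.4 CPM in Control) and of microglia (4 of 4, 92.1 to 111 CPM in MeHg and 77.1 to 85.7 CPM in Control) had a positive fold change, with medians of 0.34, 0.33 and 0.31 on the log2 scale. Astrocyte markers summed to 2017 to 2379 CPM in MeHg and 2400 to 2597 CPM in Control, and interneuron markers to 1287 to 1554 CPM in MeHg and 1477 to 1507 CPM in Control. The astrocyte list was split, with 4 of 6 fold changes negative and 2 positive. In 2 of these 6 all MeHg libraries lay below all Control libraries and in 2 above, against 15.5% and 13.9% of all genes tested. Of the 8 Purkinje markers 6 were negative and 2 positive, and Itpr1 alone was at 2902 to 3562 CPM in MeHg and 3725 to 4315 CPM in Control. Apart from that of granule cells, the lists of this paragraph held 0 called genes. The part of other cell types in the levels below was not tested. All 18 of the marker and partner lists used here were written with earlier results of these data known.

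Sequences before the transcript start are given for 4 of the 5 members that passed the test below, to show what lies at the start of genes that were lower together. Each is the 250 bases before the start of the canonical GENCODE transcript on the strand of the gene, read from GRCm39, the build of the deposited coordinates. For Cdh7 the deposited gene starts before this transcript, so that its window lies inside the deposited gene. The windows are chr11:55227484-55227733 on the minus strand for Fat2, chr8:45388052-45388301 on the plus strand for Fat1, chr9:108703269-108703518 on the plus strand for Celsr3 and chr1:109910190-109910439 on the plus strand for Cdh7. Capitals mark GGGCGG, the GC box, or its reverse complement.
Fat2: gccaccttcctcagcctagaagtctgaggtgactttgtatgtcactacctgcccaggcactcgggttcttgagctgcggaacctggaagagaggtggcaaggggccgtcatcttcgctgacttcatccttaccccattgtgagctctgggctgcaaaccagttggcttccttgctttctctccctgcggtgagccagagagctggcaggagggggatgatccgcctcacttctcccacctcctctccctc
Fat1: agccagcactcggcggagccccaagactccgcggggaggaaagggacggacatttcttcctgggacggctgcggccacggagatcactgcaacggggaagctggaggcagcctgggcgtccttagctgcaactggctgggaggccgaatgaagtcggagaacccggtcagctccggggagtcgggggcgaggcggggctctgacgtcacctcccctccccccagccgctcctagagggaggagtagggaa
Celsr3: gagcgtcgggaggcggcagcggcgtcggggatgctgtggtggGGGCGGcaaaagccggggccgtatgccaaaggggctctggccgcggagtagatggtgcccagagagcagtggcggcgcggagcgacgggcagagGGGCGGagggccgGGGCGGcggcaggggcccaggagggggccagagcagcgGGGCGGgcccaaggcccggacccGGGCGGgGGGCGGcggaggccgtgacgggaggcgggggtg
Cdh7: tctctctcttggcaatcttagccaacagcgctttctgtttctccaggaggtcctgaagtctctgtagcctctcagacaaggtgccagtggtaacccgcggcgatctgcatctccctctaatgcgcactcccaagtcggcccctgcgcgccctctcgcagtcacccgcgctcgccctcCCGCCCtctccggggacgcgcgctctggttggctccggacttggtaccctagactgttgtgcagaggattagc

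The GC box occurred 6 times in the window of Celsr3 and 1 time in that of Cdh7, and 36.3% of 21770 such windows of protein-coding genes held it at least 1 time. The E-box words CAGCTG (11.9% of windows) and CAGATG (13.0%), and the word TATAAA (11.9%), were searched on both strands and were in none of the 4. GC content was 58.4% for Fat2, 67.6% for Fat1, 79.2% for Celsr3 and 61.6% for Cdh7, against a median of 53.2% over all windows. The 6 GC boxes of Celsr3 do not overlap each other. A match describes only the letters present.

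Levels between genes were set side by side as FPKM (fragments per kilobase, scaled by gene length and library size), as the authors deposited it. Fat2 was the most abundant member per length, at 37.6 ± 2.84 FPKM (SD, n = 3) in MeHg and 54.6 ± 3.59 FPKM in Control, and took 23.2% of all counts of the 93 genes. Cdh22, a type II classical cadherin, followed with 29.2 ± 3.83 FPKM in MeHg and 26.8 ± 0.984 FPKM in Control. Fat1 (16.6 and 22.7 FPKM in MeHg and Control), Pcdh9 (17.1 and 19.9), Celsr3 (14.5 and 19.7), Cdh15 (15.6 and 18.1) and Celsr2 (14.4 and 14.6) came next. In MeHg the neighbours Pcdh9 and Fat1 in this order lay within each other's SD.

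**Figure D1:**
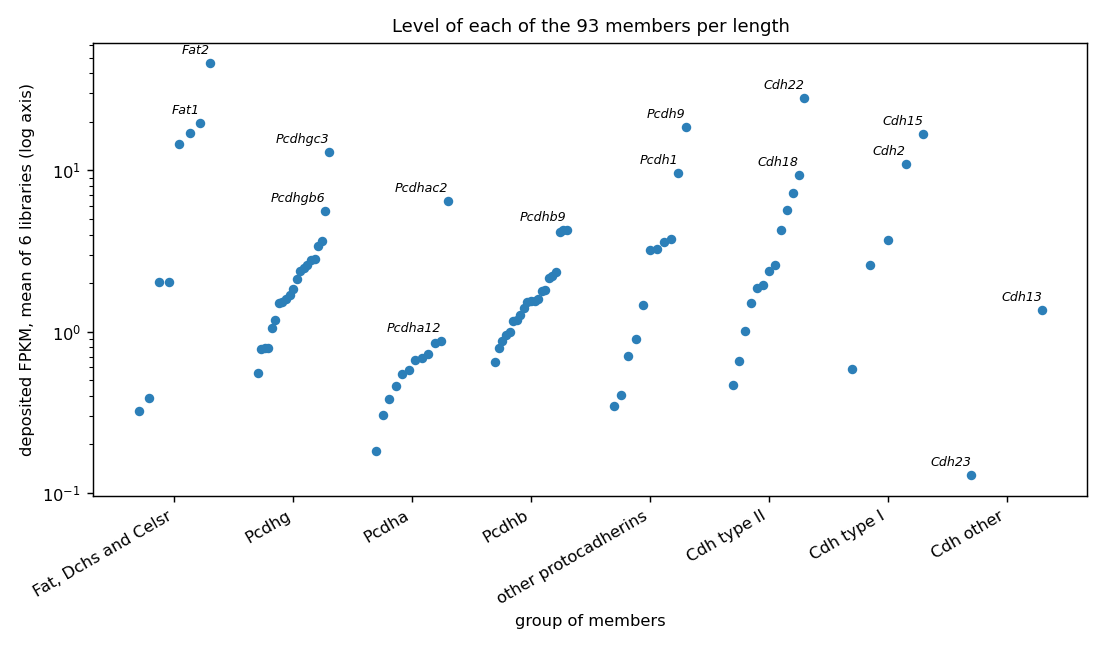
Deposited FPKM, averaged over the 6 libraries, of each of the 93 members (points) by group of members, on a log axis. Fat2 is highest at 46.1 FPKM, and most clustered protocadherins lie under 5 FPKM, with Pcdhgc3 (12.9 FPKM) and Pcdhac2 (6.44 FPKM) above their neighbours.

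The comparison of MeHg with Control asked whether exposure of the dams was followed by other RNA levels in the adult offspring. Of the 93 members 5 fell in MeHg and 0 rose (edgeR quasi-likelihood test, Benjamini-Hochberg adjusted p under 0.05 over 16859 genes). They were Fat2, Fat1, Celsr3, Cdh7 and Pcdhgc3, and their MeHg means were 69.3% to 77.6% of the Control means. The share that fell was 5.38% of the members, against 1.79% of all genes tested, and 0.575% of all genes rose. Among protein-coding genes with a mean of at least 1 CPM these shares were 2.15% and 0.68%. At an unadjusted p under 0.05, 18 members (19.4%) were lower and 5 (5.38%) higher, where all genes gave 12.7% and 11.8%, and such protein-coding genes 14.3% and 13.3%. In 20 members all MeHg libraries lay below all Control libraries (21.5%, against 15.5% of all genes and 16.9% of such protein-coding genes), and in 3 they lay above (3.23%, against 13.9% and 15.1%). Over the members the median log2 fold change was -0.14, and over all genes 0.0062.

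These calls rested on the full set of libraries. The test called 0 members without Control replicate 1, Control replicate 3, MeHg replicate 1 or MeHg replicate 3, 2 (Fat2 and Fat1) without Control replicate 2 and 12 (10 lower and 2 higher) without MeHg replicate 2, where 1091 genes in all were called. The further ones called then were Cdh8, Pcdh9, Pcdhac2, Pcdhb16 and Pcdhgb8, lower, and Cdh22 and Cdh3, higher. With an offset for gene length, or for length and GC content, it called 0 of the members and 0 genes in all, and the largest adjusted p of the 5 was 0.0987 and 0.0905. All 5 had a negative fold change in each of these fits. In all 5 every MeHg library lay below every Control library, so leaving out a library could not turn the sign. These signs therefore do not measure how stable the calls were.

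Among the Fat, Dachsous and Celsr genes, 3 of 8 fell (37.5%, against 1.79% of all genes tested). Fat2 (chromosome 11, 55141435 to 55227390, minus strand) was at 631, 549.6 and 575 CPM in MeHg replicates 1 to 3, and at 880.5, 783 and 869.6 CPM in Control replicates 1 to 3. The highest MeHg library was thus below the lowest Control library. Its mean was 585 ± 41.6 CPM in MeHg and 844 ± 53.6 CPM in Control (SD, n = 3 each), so that its log2 fold change was -0.53 ± 0.08 (SE), with an adjusted p of 0.0431. Markers of granule cells lay lower with it. All 13 had a negative fold change, against 48.9% of all genes tested, and 5 of them fell, against 1.79%. These 13 markers had a median log2 fold change of -0.32. Their part in the level of Fat2 was not tested. In bulk tissue, fewer cells of a type and less RNA per cell cannot be told apart.

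Fat1, a regulator of cell polarity and migration, was at 295, 268 and 271 CPM in MeHg and at 385, 359 and 389 CPM in Control (chromosome 8, 45388484 to 45505294). The groups did not overlap, and Fat1 fell by 0.44 in log2 units (SE 0.07, adjusted p = 0.0431). Celsr3, which is needed for the growth of major axon tracts, was at 201, 197 and 164 CPM in MeHg and at 247, 247 and 266 CPM in Control (chromosome 9, 108703519 to 108730168). MeHg replicate 3 was the lowest library and Control replicate 3 the highest, and Celsr3 fell by 0.43 (SE 0.08, adjusted p = 0.0433).

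Other genes of these families did not pass. Celsr2, close in level to Celsr3, was at 179, 216 and 160 CPM in MeHg and at 170, 206 and 186 CPM in Control, with overlapping groups and a log2 fold change of -0.02 ± 0.11. Celsr1, a planar polarity gene of low level here, was at 4.08, 5.69 and 4.92 CPM in MeHg and at 3.50, 3.04 and 2.80 CPM in Control. Its libraries did not overlap, in the direction opposite to Celsr3, and its log2 fold change was 0.65 ± 0.21 (adjusted p = 0.110). Dchs1, a ligand of Fat4, had a log2 fold change of 0.20 ± 0.10, Fat4 itself of 0.04 ± 0.20 and Fat3, which shapes amacrine neurons in the retina, of 0.09 ± 0.13.

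**Figure D2:**
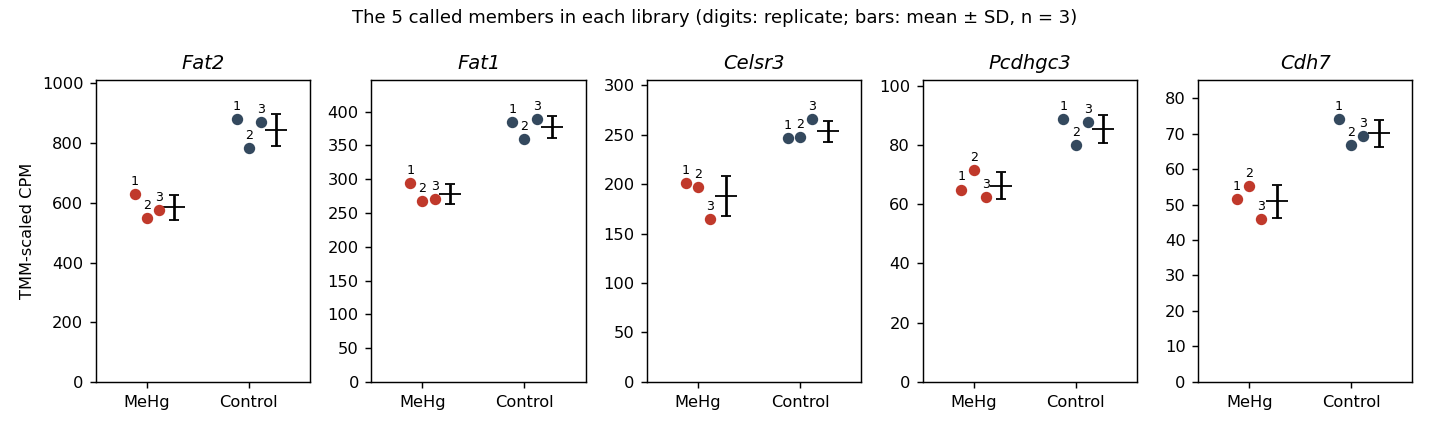
TMM-scaled CPM (y axis, from 0) of Fat2, Fat1, Celsr3, Pcdhgc3 and Cdh7 in the 3 MeHg and 3 Control libraries (points, digits give the replicate), with the mean and SD at the right of each group. In each of the 5 genes all MeHg points lie under all Control points, for Cdh7 between 46.0 and 55.2 CPM against 66.6 to 74.1 CPM.

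In the gamma cluster of protocadherins all 21 Pcdhg members had a negative log2 fold change, between -0.87 and -0.07, with a median of -0.30, and 1 of them, Pcdhgc3, fell. Of all genes tested 48.9% had a negative fold change and 1.79% fell. In 10 of 21 (47.6%) the MeHg libraries all lay below the Control libraries, against 15.5% of all genes. Summed over the cluster, the level was 267, 303 and 231 CPM in MeHg and 345, 326.5 and 347 CPM in Control, 21.3% lower in the MeHg mean. Without MeHg replicate 2 the median was -0.45 and all 21 were negative, and 20 of 21 were negative without MeHg replicate 3 or without Control replicate 1. The highest MeHg library was replicate 2 and the lowest replicate 3, which held the minimum of 15 of the 21 genes. These 21 genes are neighbours on chromosome 18 and share their last exons, so they are not independent measurements.

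Pcdhgc3, a C-type gamma gene that has its own role in dendrite growth in mouse cortex, was at 64.9, 71.4 and 62.4 CPM in MeHg and at 88.7, 79.8 and 87.6 CPM in Control. The groups did not overlap, and it fell by 0.37 in log2 units (chromosome 18, 37939417 to 37974926; SE 0.08, adjusted p = 0.0466). Pcdhgb8 had the largest difference of the cluster, with 2.84, 3.14 and 2.29 CPM in MeHg and 4.92, 4.64 and 5.61 CPM in Control, and a log2 fold change of -0.87 ± 0.20 (adjusted p = 0.0578). Pcdhgb6, the second gamma gene by level, averaged 24.1 ± 2.45 CPM in MeHg and 32.0 ± 3.79 CPM in Control (-0.41 ± 0.12, adjusted p = 0.0882).

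The other C-type gamma genes are Pcdhgc4, which is needed for the survival of neurons in mice, and Pcdhgc5. Pcdhgc4 was at 19.5, 25.1 and 17.4 CPM in MeHg and at 23.0, 22.7 and 22.5 CPM in Control, so that MeHg replicate 2 lay above all Control libraries (-0.14 ± 0.13). Pcdhgc5 was at 11.6, 10.1 and 11.3 CPM in MeHg and at 12.1, 15.1 and 13.4 CPM in Control, without overlap (-0.30 ± 0.13, adjusted p = 0.206). As a share of all gamma counts, Pcdhgc3 held 24.95 ± 1.82% in MeHg and 25.1 ± 0.635% in Control (SD, n = 3 each), a difference within the spread of replicates. Pcdhgb8 held 1.03 ± 0.04% in MeHg and 1.49 ± 0.11% in Control.

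In the alpha cluster 12 of 12 members had a negative fold change, against 48.9% of all genes tested. The median was -0.29 and the value of Pcdha1 was -0.006. Of the 12, 0 passed and 1 (8.33%) was lower at an unadjusted p under 0.05, against 12.7% of all genes. In 0 of the 12 all MeHg libraries lay below all Control libraries, against 15.5% of all genes. Like the gamma genes they are neighbours that share their last exons, so they are not independent measurements. Pcdhac2, the C-type gene used by serotonergic neurons for axon tiling in mice, made up 51.2 ± 1.97% of alpha counts in MeHg and 54.5 ± 1.16% in Control. It was at 32.5, 43.6 and 27.5 CPM in MeHg and at 49.3, 41.2 and 48.9 CPM in Control, and the groups overlapped through MeHg replicate 2 (-0.43 ± 0.16, adjusted p = 0.145). The second by level, Pcdha12, averaged 4.44 ± 0.765 CPM in MeHg and 5.46 ± 0.381 CPM in Control (-0.29 ± 0.19), and Pcdha5 had a log2 fold change of -0.37 ± 0.23. Pcdha8, at 0.262 to 1.17 CPM in MeHg and 0.359 to 2.38 CPM in Control, had the widest error (-1.12 ± 0.66). The alpha sum was 65.7, 81.6 and 54.3 CPM in MeHg and 91.7, 76.2 and 87.5 CPM in Control, so MeHg replicate 2 exceeded Control replicate 2. The median log2 fold change was -0.42 without MeHg replicate 2 (11 of 12 negative), -0.12 without MeHg replicate 3 (10 of 12) and -0.19 without Control replicate 1 (9 of 12).

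The genes of the beta cluster do not share a set of last exons as the alpha and gamma genes do. Of 21 Pcdhb members 16 (76.2%, against 48.9% of all genes tested) had a negative fold change (median -0.14). None of the 21 passed, and 2 were lower at an unadjusted p under 0.05, against 12.7% of all genes. Pcdhb16 was at 9.34, 10.9 and 9.98 CPM in MeHg and at 14.6, 13.6 and 14.01 CPM in Control (-0.48 ± 0.12, adjusted p = 0.0650). Pcdhb14 was at 18.2, 18.4 and 18.9 CPM in MeHg and at 23.1, 23.1 and 21.4 CPM in Control (-0.29 ± 0.09, adjusted p = 0.108). Neither pair of groups overlapped. Pcdhb17 (-0.22 ± 0.11) and Pcdhb20 (-0.18 ± 0.11) were lower without overlap, and Pcdhb9, the most abundant per length, averaged 13.9 ± 1.149 CPM in MeHg and 14.01 ± 0.622 CPM in Control. Pcdhb3 was the beta gene whose MeHg libraries all lay above Control (0.32 ± 0.19). The beta sum was 168, 177 and 167 CPM in MeHg and 192, 191 and 181 CPM in Control, 9.22% lower in the MeHg mean. The median log2 fold change of the beta genes was -0.05, with 14 of 21 negative, both without MeHg replicate 2 and without Control replicate 1, and 11 of 21 were negative without Control replicate 2.

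**Figure D3:**
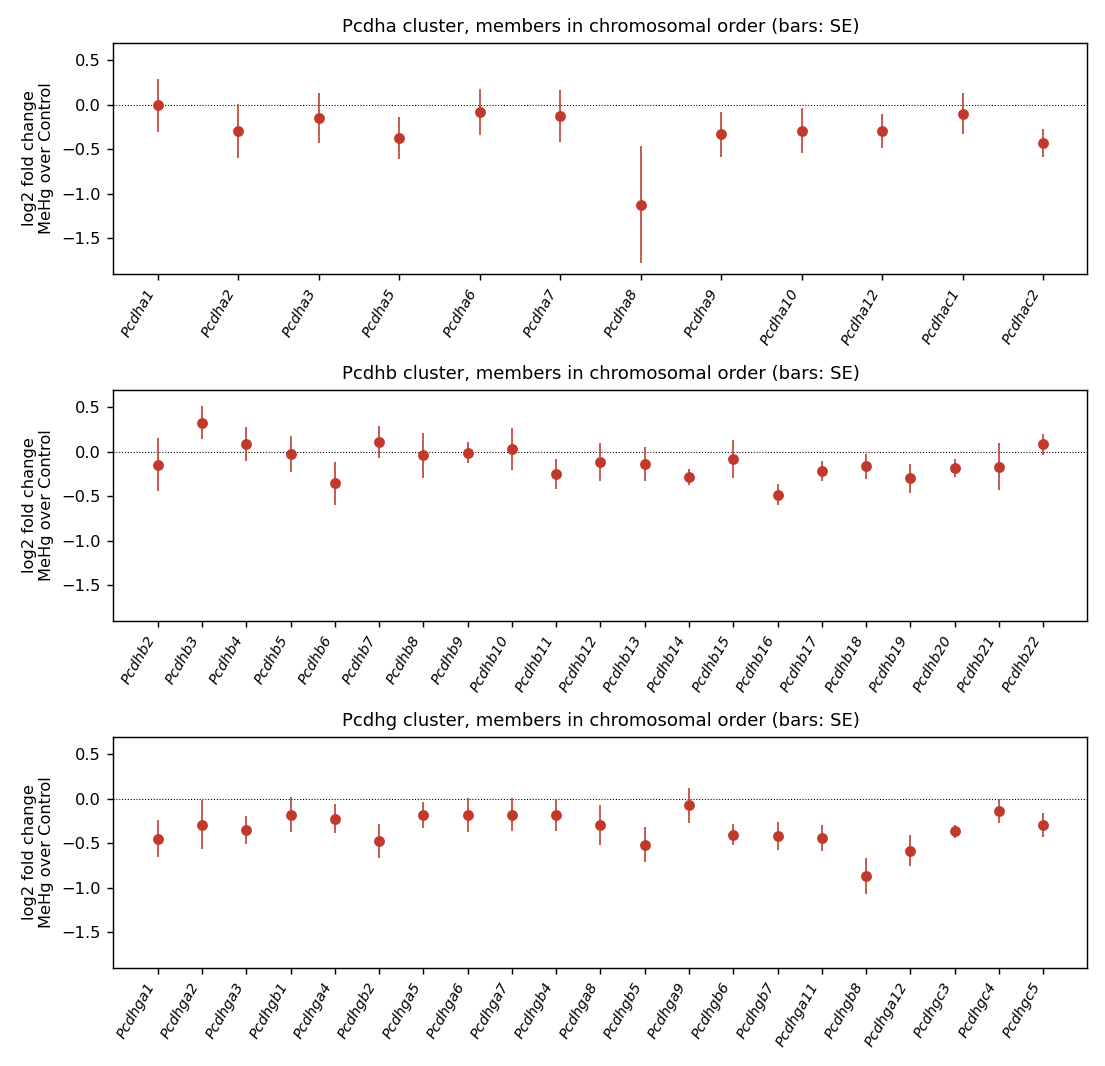
Log2 fold change of MeHg over Control with its SE (y axis) for each member of the Pcdha, Pcdhb and Pcdhg clusters, in their order along the chromosome (x axis). All alpha and gamma points lie below 0, that of Pcdha1 by the least, and 5 of 21 beta points lie above it.

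How reads were shared between neighbours bears on these values. In the GENCODE annotation a median of 46.4% of the exonic bases of a Pcdha member and 53.7% of a Pcdhg member belong to no other gene, against a median of 100% for Pcdhb. For Fat2 it was 98.5% and for Pcdhgc3 32.6%, with genes on either strand counted. On the strand of Pcdhgc3 alone, 3381 of its 5591 exonic bases were free. Alpha and gamma levels thus depend on how the counting program assigned reads of the shared exons, which is not given in the sources used here. Of Pcdha4 and Pcdhga10, both under 1 CPM, 7.004% and 0% of exonic bases were free of other genes on either strand. On its own strand Pcdhga10 had 2634 of 4844 exonic bases free, and Pcdha4 494 of 5768. Whether their low counts measure low expression thus depends on the counting, that of Pcdhga10 on its use of strand.

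Of the 20 Cdh genes 1 fell (5%, a single gene, against 1.79% of all genes tested). Cdh7, a type II cadherin (chromosome 1, 109910161 to 110067887), was at 51.4, 55.2 and 46.0 CPM in MeHg and at 74.1, 66.6 and 69.4 CPM in Control. The groups were apart, and it fell by 0.46 in log2 units (SE 0.08, adjusted p = 0.0431). Cdh8 and Cdh18, type II cadherins of neurons, were at 31.5 ± 6.99 and 41.4 ± 2.36 CPM in MeHg and at 39.1 ± 2.22 and 50.0 ± 6.42 CPM in Control. Their groups overlapped, with log2 fold changes of -0.31 ± 0.14 and -0.28 ± 0.10 (adjusted p = 0.214 and 0.150). Without MeHg replicate 2, in which Cdh8 was at 39.5 CPM against 28.7 and 26.4 CPM in the other MeHg libraries, Cdh8 was called lower.

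Cdh22, the most abundant type II gene, was at 124, 99.1 and 124 CPM in MeHg and at 109.9, 105 and 103 CPM in Control (0.13 ± 0.09, adjusted p = 0.406), and was called higher without MeHg replicate 2. The endothelial junction gene Cdh5 averaged 11.1 ± 1.68 CPM in MeHg and 10.2 ± 1.09 CPM in Control (0.11 ± 0.16). The 5 endothelial markers summed to 109.2 to 147 CPM in MeHg and 101 to 107 CPM in Control. All 5 had a positive fold change (median 0.30), against 51.1% of all genes tested. Of them 1 rose and 0 fell, against 0.575% and 1.79% of all genes, and their part in the level of Cdh5 was not tested. Cdh11, a gene of mesenchymal cells, had a log2 fold change of -0.08 ± 0.13.

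Of 5 type I cadherins 0 passed. Cdh2, the N-cadherin of neural tissue, was at 86.5, 101 and 89.0 CPM in MeHg and at 93.5, 97.8 and 93.9 CPM in Control, a log2 fold change of -0.04 ± 0.07. Cdh15, the M-cadherin of muscle that granule cells also make, was at 60.7, 42.5 and 60.1 CPM in MeHg and at 64.3, 67.6 and 56.5 CPM in Control. Its lowest library was MeHg replicate 2, the others overlapped, and the log2 fold change was -0.21 ± 0.14 (adjusted p = 0.379). Fat2, by contrast, was low in all 3 MeHg libraries. Cdh1, the E-cadherin of epithelia, had a log2 fold change of 0.15 ± 0.14.

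Cdh3, the P-cadherin of epithelia, was at 3.40, 1.70 and 7.75 CPM in MeHg and at 2.18, 0.698 and 0.719 CPM in Control (1.80 ± 0.60, adjusted p = 0.120). MeHg replicate 3 was highest and the groups overlapped. The choroid plexus markers summed to 2736, 1561 and 6723 CPM in the same MeHg libraries and to 1877, 408 and 24.9 CPM in the Control libraries, and their part in the level of Cdh3 was not tested.

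**Figure D4:**
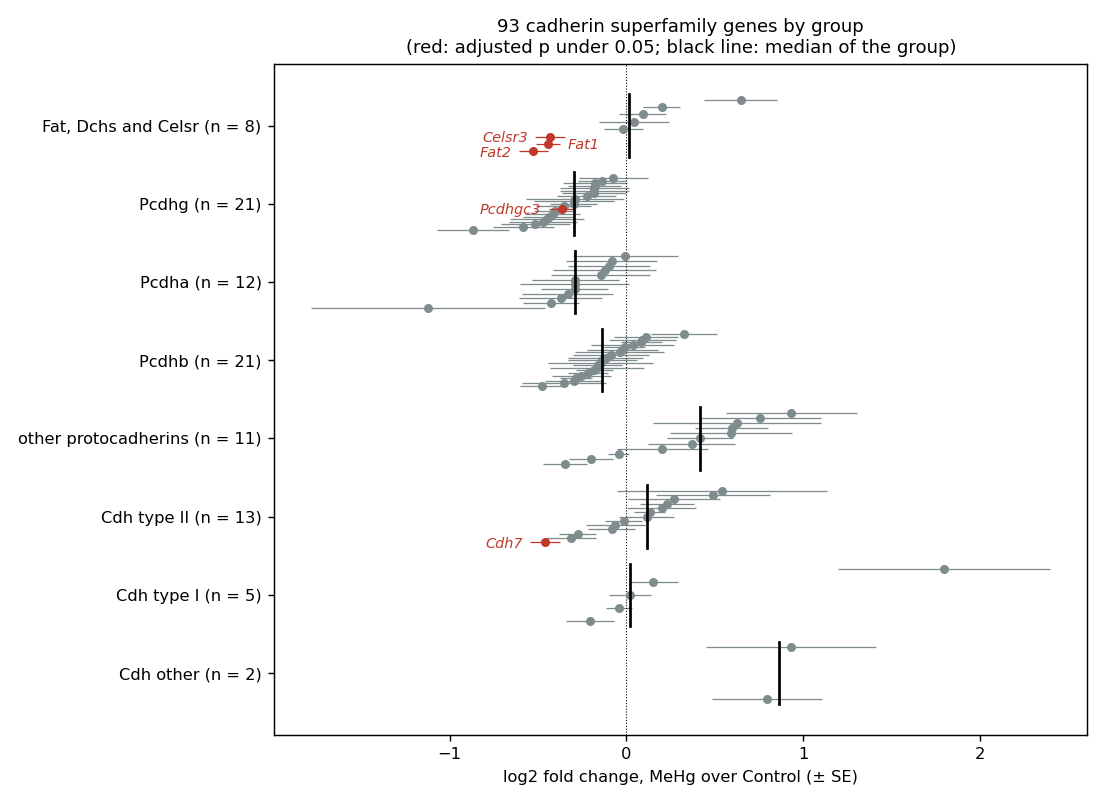
Log2 fold change of MeHg over Control with its SE (x axis) of each of the 93 members (points) by group, with the median of each group as a black line. Red points are the 5 genes with an adjusted p under 0.05, all left of 0, and the medians run from -0.30 for Pcdhg to 0.42 for the other protocadherins and 0.86 for the pair of Cdh genes outside types I and II.

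Of the 11 protocadherins outside the clusters 0 passed, 8 had a positive log2 fold change and the median was 0.42. Without MeHg replicate 2 the median was -0.05, with 6 of 11 negative. In that library 8 of these 11 genes had their highest value. Over all 93 members, 10 were at least 1.5 times as high in MeHg replicate 2 as in any other library, all of them outside the clusters, against 0 to 1 members for each of the other 5 libraries.

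Pcdh10, a delta protocadherin of axon growth, was at 51.9, 101 and 43.8 CPM in MeHg and at 54.9, 56.4 and 59.6 CPM in Control. Its log2 fold change of 0.20 ± 0.26 was -0.24 without MeHg replicate 2, where the 2 remaining MeHg libraries lay under all Control libraries. Pcdh17, of the same family, was at 37.2, 76.7 and 37.9 CPM in MeHg and at 38.1, 38.6 and 40.8 CPM in Control. Pcdh19, an X-linked gene of human epilepsy, was at 6.93, 20.3 and 9.30 CPM in MeHg and at 7.30, 9.08 and 7.76 CPM in Control. In each of these genes MeHg replicate 2 was the highest library. The other MeHg libraries lay below all Control libraries for Pcdh10 and, by little, for Pcdh17 (37.2 and 37.9 CPM against at least 38.1 CPM). For Pcdh19 MeHg replicate 1 lay below all Control libraries and MeHg replicate 3 above them.

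Pcdh11x (14.1 CPM), Pcdh8 (15.4 CPM) and Pcdh18 (7.79 CPM) were likewise highest in MeHg replicate 2, against 3.59 to 6.09 CPM, 3.45 to 6.67 CPM and 2.43 to 4.52 CPM in the other 5 libraries. Outside the protocadherins the same held for Cdh13, the cadherin with a lipid anchor in place of a membrane segment, at 34.0 CPM in that library against 12.9 and 15.6 CPM in the other MeHg libraries and 11.5 to 12.4 CPM in Control (0.79 ± 0.31, adjusted p = 0.166). It held for Cdh6, at 11.97 CPM against 4.82 to 5.61 CPM in the other 5, and for Cdh23, a component of the tip links of hair cells, at 5.56 CPM against 1.29 to 2.35 CPM. Cdh24 was the tenth of these genes, at 10.99 CPM against 5.50 to 7.26 CPM. The serotonin genes Tph2 and Slc6a4 were at 67.5 and 47.1 CPM in MeHg replicate 2 and at most at 1.48 and 0.539 CPM elsewhere, and their part in these levels was not tested. In the list of 6 brainstem and midbrain markers, 2 were at 0 in at least 1 library.

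Pcdh7 was at 35.8, 57.6 and 39.0 CPM in MeHg and at 23.6, 37.2 and 26.7 CPM in Control. All MeHg libraries lay above Control replicates 1 and 3, the groups overlapped through Control replicate 2, and the log2 fold change was 0.59 ± 0.21 (adjusted p = 0.132). Pcdh15, another tip link gene, had a log2 fold change of 0.42 ± 0.19 (adjusted p = 0.213). Pcdh20 was at 20.5, 20.2 and 17.7 CPM in MeHg and at 27.3, 20.9 and 26.3 CPM in Control, lower without overlap but not past the test (-0.35 ± 0.12, adjusted p = 0.137). Pcdh9, the most abundant of the group, was at 119, 152 and 103 CPM in MeHg and at 142, 135 and 153 CPM in Control (-0.20 ± 0.12), and was called lower without MeHg replicate 2. Pcdh1, the second of the group per length, averaged 88.6 ± 3.77 CPM in MeHg and 91.4 ± 0.920 CPM in Control (-0.04 ± 0.06). The endothelial protocadherin Pcdh12 was among the genes under 1 CPM.

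**Figure D5:**
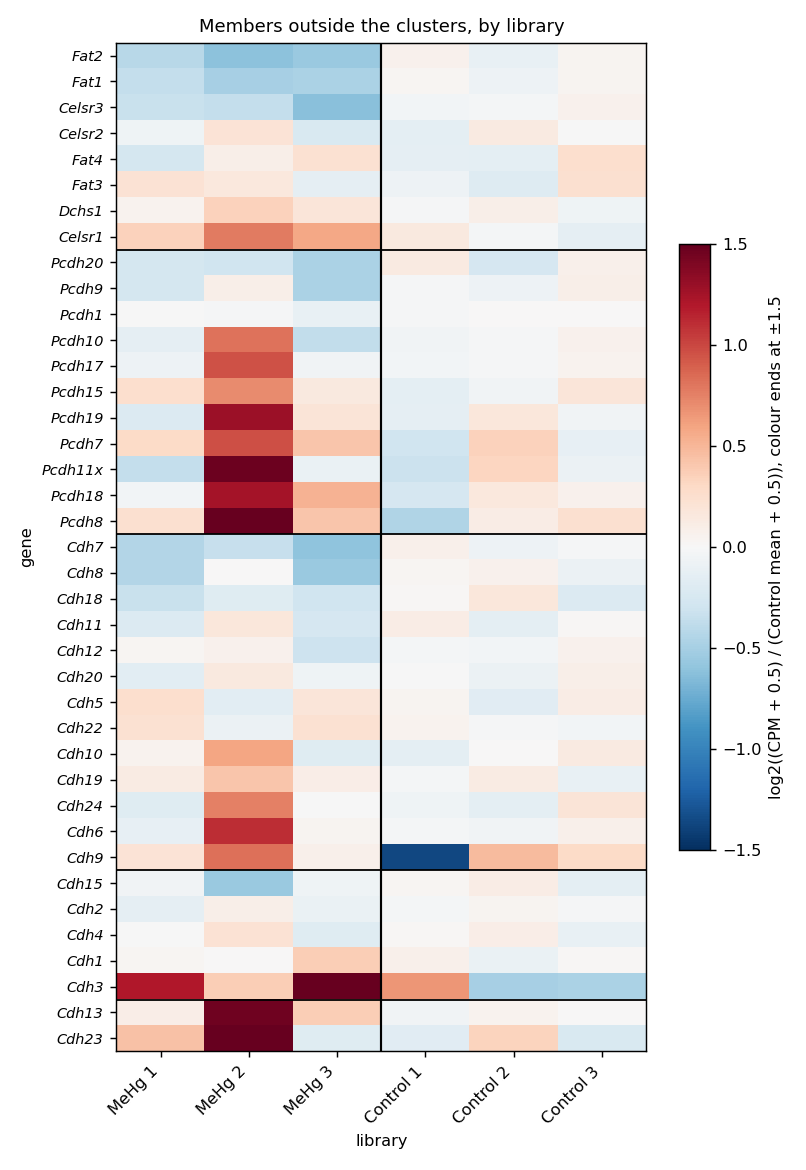
Log2 ratio of each library (columns, MeHg left of Control) to the Control mean, with 0.5 CPM added to both, for the 39 members outside the clusters (rows, by family); colour ends at 1.5 in either direction. Fat2, Fat1, Celsr3 and Cdh7 are blue in all MeHg columns, and the red cells of most protocadherins, Cdh13, Cdh6 and Cdh23 stand in the column of MeHg replicate 2.

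Genes that work with the members were listed by role. Of 15 regulators of the clustered protocadherin locus, which include CTCF and the cohesin ring that fold its promoters onto enhancers, 14 had a negative fold change, 4 fell and 0 rose, with a median of -0.23. The cohesin loader Nipbl averaged 82.1 CPM in MeHg and 110.6 CPM in Control (-0.43 ± 0.07, adjusted p = 0.0431). Smchd1, a repressor of the locus, was at 47.8 and 64.5 CPM in MeHg and Control (-0.43 ± 0.08, adjusted p = 0.0431), and the cohesin genes Pds5a (-0.35 ± 0.07) and Stag1 (-0.35 ± 0.07) also fell. The background for these counts is the 1.79% of all genes given above.

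Of 16 catenins and junction adaptors 1 fell and 0 rose, against 1.79% and 0.575% of all genes tested. That gene was Afdn, afadin, which ties nectins to actin, at 125 CPM in MeHg and 181 CPM in Control (-0.53 ± 0.09, adjusted p = 0.0431). In 4 of the 16 all MeHg libraries lay below all Control libraries and in 4 above, against 15.5% and 13.9% of all genes tested. Limd1 averaged 15.7 CPM in MeHg and 11.6 CPM in Control (0.44 ± 0.15, adjusted p = 0.131). Of 20 genes of Fat and Dachsous partners and the Hippo pathway 1 fell, the kinase Taok1 (-0.27 ± 0.06, adjusted p = 0.0498), and 0 rose. The same 1.79% and 0.575% of all genes are the background here, and in each of these 2 lists the call is a single gene. Lats1, the Hippo kinase, had a log2 fold change of -0.28 ± 0.07 (adjusted p = 0.0612).

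The 12 planar cell polarity partners of Celsr held 0 calls, with a median of 0.12. The values with the smallest p were those of Dvl3 (-0.26 ± 0.08, adjusted p = 0.0960) and Fzd3 (-0.21 ± 0.07, adjusted p = 0.105), the receptor that acts with Celsr3 in axon tracts. Among 13 genes of the WAVE complex and protocadherin signalling 0 passed (median -0.04), with Ptk2b at 0.72 ± 0.22 and Abi1 at -0.18 ± 0.06. The 11 genes of cadherin-cleaving proteases and their subunits held 0 calls (median 0.01), with Adam10 at -0.11 ± 0.06 and Psenen, a subunit gene, at 0.19 ± 0.09. Of 9 tested genes with cadherin repeats outside the name rule 0 passed, with the smallest p for Cdhr3 (1.52 ± 0.34, adjusted p = 0.0532) and Cdhr4 (2.23 ± 0.51, adjusted p = 0.0545). The 5 markers of ciliated ependyma summed to 36.8 to 59.1 CPM in MeHg and 15.7 to 23.6 CPM in Control, none of them at 0. Of these 5 markers 2 rose, against 0.575% of all genes tested. In all 5 the MeHg libraries lay above the Control libraries, against 13.9% of all genes. The part of ependyma in the values of Cdhr3 and Cdhr4 was not tested.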

How the data were processed

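RNA of 6 cerebella was sequenced on an Illumina NovaSeq with paired reads of 150 bases, per the labels' protocols. The submitters' processing notes name mm39 and DESeq2. Neither aligner nor counter, annotation release or strand setting is given in these sources. The authors deposited a table of raw counts per gene and a table of FPKM values, which are proportional to count over gene length with a library total 1.04 to 1.09 times the count sum. Counts passing edgeR's filterByExpr (16859 genes, all 93 members) were scaled by TMM. In R 4.3.3, edgeR 4.0.16 compared MeHg with Control by its quasi-likelihood F test, with a model of group alone and Benjamini-Hochberg adjustment over all genes tested. SE is the absolute log2 fold change over the square root of F. CPM is relative to the scaled library size, except in the 1 CPM limit, which used the count sum.

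The procedure was tested on simulated counts with planted changes. It recovered 24 of 67 log2 changes of 0.5, 40 of 67 of 1 and 58 of 65 of 2. There were 9 false calls among 16421 unchanged genes. A member that was not called may thus still differ. The libraries of a group were no copies (chi-square per degree of freedom 7.74 to 19.6). Named were the called members, the 3 with the smallest p and the 2 with the highest FPKM of each group, a fixed set, and of each partner list the called genes and the 2 with the smallest p. Cdh24, Pcdhb3, Pcdh11x, Pcdh18, Tph2 and Slc6a4 were added after their values were seen. The members and the lists were chosen with earlier results of these data known, and all 169 listed symbols were matched. Alternatives were other scalings and filters, a term for sex or replicate number, DESeq2 1.42.0, limma 3.58.1 on voom weights or on log2 FPKM with 1 or 0.1 added, loess offsets for the gene length in the deposited table and for GC content of the longest GENCODE vM39 transcript, other thresholds and leaving out each library; leaving out both libraries numbered 2 was added after seeing the data. Exon overlaps and upstream windows came from GENCODE vM39 on GRCm39, in which 90 of the 93 members start near the deposited start, within 1 kb.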

Additional observations from a re-analysis of the deposited data

How the results depend on the processing

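The counts below are members lower, members higher and genes over the whole table, which were 5, 0 and 398. They were 8, 2 and 1394 with DESeq2, 12, 6 and 2378 without a filter on low counts, 3, 0 and 197 with upper-quartile scaling, and 0, 0 and 0 with an offset for length, with 1 for length and GC content, and with limma on log2(FPKM + 1) or log2(FPKM + 0.1), where 3555 to 3887 genes had an unadjusted p under 0.05. At an adjusted p under 0.1 there were 9, 0 and 1653, and under 0.01 there were 0, 0 and 0. With sex as labelled as a term, in which Control replicate 2 stands as female against its Xist and Ddx3y levels, 609 genes were called and the same 5 members. A term for sex by RNA was not run. Leaving out a library gave 0 to 10 members lower, 0 to 2 higher and 0 to 1091 genes. Leaving out both libraries numbered 2, which was chosen after seeing the data, gave 14, 2 and 1723. The cause of these shifts was not tested. The median over the members stayed negative in all fits, from -0.22 without MeHg replicate 2 to -0.07 with limma on log2(FPKM + 1) and without MeHg replicate 3.

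With the replicate number as a block, 4 members were lower, 1 (Pcdh7) higher and 648 genes called, and Pcdhgc3 was no longer called (adjusted p = 0.0533). Deviations of same-numbered libraries correlated at 0.19, 0.35 and -0.24, and those of differently numbered libraries at -0.43 to 0.36. With 3 libraries per group, whose deviations are not independent, these values cannot decide whether the numbers pair the samples.

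Signs that turned belonged to values that were not called in either fit. With the length and GC offset Cdh2 was at 0.020, Cdh11 at 0.028 and Celsr2 at 0.041. With the length offset Cdh2 was at 0.034, Cdh11 at 0.0026, Celsr2 at 0.11 and Pcdh1 at 0.043. With upper-quartile scaling Pcdhb9 was at 0.027 and Celsr2 at 0.019. Without both libraries numbered 2, Cdh15 was at 0.0040, Pcdhb9 was at 0.0040, Cdh6 was at -0.059, Fat3 was at -0.021, Fat4 was at -0.052, Pcdh10 was at -0.25 and Pcdh17 was at -0.062. Over the fits that leave out a library, Cdh2 ran from -0.11 to 0.0012, Pcdhb9 ran from -0.065 to 0.049, Celsr2 ran from -0.14 to 0.079, Cdh6 ran from -0.030 to 0.72, Fat4 ran from -0.071 to 0.19, Pcdh10 ran from -0.24 to 0.43 and Pcdh17 ran from -0.050 to 0.55.

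Members near 1 CPM rest on few counts per library: Pcdha8 had 19, 4 and 8 counts in MeHg and 47, 30 and 5 in Control, with a wide spread within each group.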
